A study of Caenorhabditis elegans with 39 samples.

Results

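miR-59 is a Caenorhabditis elegans microRNA (miRNA), here described through both of its mature strands, miR-59-3p and miR-59-5p, in all 39 libraries of a small RNA sequencing series. These are 2 of the 437 miRNA entries in the count table. They were chosen by their levels over the hours in Alg1E and N2 larvae, where miR-59-3p gave the clearest difference in time course, so every value that sets Alg1E against N2 or Alg1A is a description and carries no test. The Alg1A libraries were not part of that choice, and the tests given here are on them. Where they are set against N2, the N2 libraries did take part in the choice. The Alg1E libraries, which also took part, enter the estimate of spread in those tests.

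The series covered 3 genotypes with 13 libraries each, 1 library for every hour from 18 to 30 h after synchronized first-stage (L1) larvae were plated at 25 degrees. Alg1E and Alg1A are mutants of ALG-1, and N2 is the standard wild type strain, which the labels also give as the background of the mutants. The labels do not spell out the letters A and E, and the series title concerns phosphorylation of ALG-1 and miRNA binding. All libraries came from total RNA of whole animals, so fewer cells that make a miRNA and less miRNA per cell cannot be told apart. The labels name no replicate, culture or batch. The p-values thus rest on single libraries per hour. In the fits over time they measure the scatter of libraries around a smooth curve, and in the fits of level how unevenly the genotypes differ from hour to hour, and part of either may be technical.

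A miRNA is cut from a hairpin precursor as a short duplex with 1 strand from each arm, 5p and 3p. An Argonaute protein, such as ALG-1, keeps one strand as the guide that pairs with target mRNAs, and the other strand is usually lost. In C. elegans larvae, miRNAs that switch on at set stages help to time development, with lin-4 and let-7 as the best known examples.

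The miR-59 hairpin (B0035.17) is annotated on the minus strand of chromosome IV from 11309154 to 11309253 in WBcel235 (the assembly also called ce11). The 23 bases of miR-59-3p lie from 11309169 to 11309191, and the 22 bases of miR-59-5p from 11309213 to 11309234. No other annotated gene overlaps the hairpin. The nearest protein-coding genes are znf-207, 1718 bp away on the plus strand, and B0035.13, 2433 bp away on the minus strand. The nearest other miRNA hairpins are mir-53, 281462 bp away, and mir-8207, 412839 bp away, so miR-59 is not part of a tight cluster of hairpins.

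Libraries held between 1146950 and 4668890 miRNA reads in Alg1E, between 1245377 and 4472517 in Alg1A and between 1751599 and 4479656 in N2. A count of 3 reads corresponded to at most 2.31 CPM (counts-per-million, with library sizes scaled by TMM) in Alg1E, 2.76 in Alg1A and 1.86 in N2. Both arms of miR-59 were among the 243 miRNAs kept by the filter on low counts. The Alg1A libraries of 18 and 19 h stood apart from the rest. miR-1-3p, a muscle miRNA, measured 36473 and 17158 CPM in them, against 66519 to 125956 CPM over the 13 N2 libraries. miR-60-3p, an intestinal miRNA, measured 7336 and 5239 CPM, where the N2 libraries ran from 20573 to 35985 CPM. The neuronal miR-124-3p was at 129.8 and 251 CPM in these libraries, and both values were inside the N2 range of 126 to 281 CPM. Tests in Alg1A that these 2 libraries change are given with and without them. Reads without a feature took a larger share in Alg1E, 49.5% on average, than in Alg1A (35.3%) and N2 (37.2%), and their part in the results was not tested.

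miR-59-3p was the abundant strand, and in all 3 genotypes it was higher at the end of the series than at its start. In Alg1E it stayed between 179 and 452 CPM in the 9 libraries of 18 to 26 h. It then stood at 586 CPM at 27 h, 1185 at 28 h, 3723 at 29 h and 4111 at 30 h. The climb in Alg1E thus fell in the last 4 hours sampled, and its highest level was at the last hour.

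In Alg1A, miR-59-3p lay between 177 and 673 CPM in the 6 libraries of 18 to 23 h. It was at 790.4 CPM at 24 h, 1473 at 25 h, 3336 at 26 h, 3843 at 27 h, 7117 at 28 h, 7978 at 29 h and 13907 at 30 h. Every library from 22 h on was higher than the one an hour before it. In N2, miR-59-3p lay between 359 and 672 CPM from 18 to 23 h. It was at 1089.9 CPM at 24 h, 3862 at 25 h, 3192 at 26 h, 5559 at 27 h, 7481 at 28 h, 12984 at 29 h and 10914 at 30 h. The largest step between neighbouring hours in N2 was from 24 to 25 h (1.82 log2 units), and in Alg1E from 28 to 29 h (1.65 log2 units).

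By rank of read count among all miRNAs, miR-59-3p moved up in each genotype between 18 and 30 h. It was at rank 103 at 18 h and rank 40 at 30 h in Alg1E, at ranks 103 and 21 in Alg1A, and at ranks 78 and 26 in N2. Set over whole windows, its mean at 18 to 20 h was 295 ± 47.4 CPM in the Alg1E libraries, 273 ± 166 CPM in those of Alg1A and 399.6 ± 11.8 CPM in those of N2 (SD over 3 libraries each). At 28 to 30 h the Alg1E mean was 3007 ± 1589 CPM, the Alg1A mean 9667 ± 3697 CPM and the N2 mean 10459.6 ± 2779 CPM (SD over 3 libraries each). The late mean was 10.2 times the early mean in Alg1E, 35.4 times in Alg1A and 26.2 times in N2. Taken against 20 to 22 h, which leaves out the Alg1A libraries of 18 and 19 h, the ratios were 9.29 in Alg1E, 23.4 in Alg1A and 24.8 in N2.

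**Figure D1:**
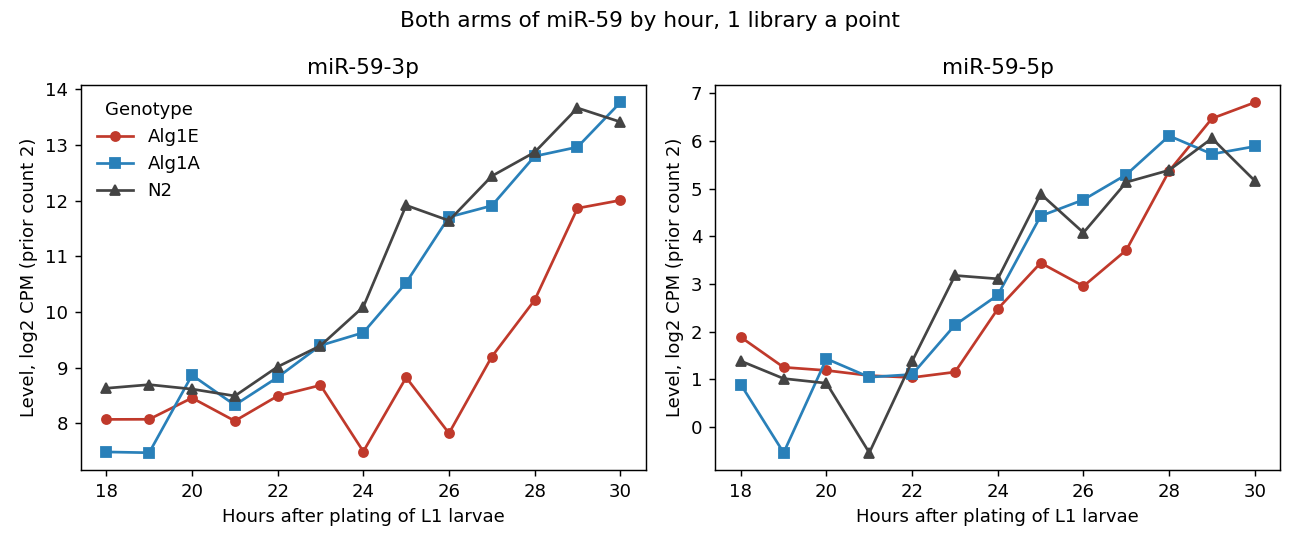
Level of miR-59-3p (left) and miR-59-5p (right) in log2 CPM (prior count 2) against hours after plating, 1 point per library, for Alg1E, Alg1A and N2. miR-59-3p stays low in Alg1E through 26 h while it is already at 3336 CPM in Alg1A and 3192 CPM in N2. miR-59-5p reaches its highest level of all libraries, 112 CPM, in Alg1E at 30 h.

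miR-59-5p, the rare strand, was also higher late in all 3 genotypes. In Alg1E it was between 1.37 and 3.01 CPM at 18 to 23 h, and then 4.89 CPM at 24 h, 10.2 at 25 h, 7.08 at 26 h, 12.4 at 27 h, 40.7 at 28 h, 88.3 at 29 h and 112 at 30 h. In Alg1A it was between 0 and 3.73 CPM at 18 to 23 h, and then 6.14 CPM at 24 h, 20.9 at 25 h, 26.6 at 26 h, 38.6 at 27 h, 68.4 at 28 h, 52.3 at 29 h and 58.5 at 30 h. In N2 it was between 0 and 8.38 CPM at 18 to 23 h, and then 7.95 CPM at 24 h, 29 at 25 h, 16.2 at 26 h, 34.5 at 27 h, 41.2 at 28 h, 65.9 at 29 h and 35.3 at 30 h. At 29 and 30 h the order of the genotypes was not that of miR-59-3p, since Alg1E held the most miR-59-5p and the least miR-59-3p.

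The early values of miR-59-5p rest on few reads. From 18 to 23 h it had 29 reads in all in Alg1E, 31 in Alg1A and 53 in N2. No read was found in the Alg1A library of 19 h or in the N2 library of 21 h. From 24 to 30 h it had 630 reads in Alg1E, 752 in Alg1A and 553 in N2, so the late values are the firmer ones.

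In Alg1A, whose course was not used to choose miR-59, both strands rose with time. Relative to 18 h, the fitted level at 30 h was higher by 6.13 log2 units for miR-59-3p (edgeR quasi-likelihood test, adjusted p = 2.29e-09) and by 5.59 log2 units for miR-59-5p (adjusted p = 7.15e-09). By this test 44% of the 243 miRNAs changed with time in Alg1A, with 23.9% higher and 20.2% lower at 30 h. miR-59-3p had the second smallest p of them, at rank 2, and miR-59-5p was at rank 8. Without the Alg1A libraries of 18 and 19 h, the rise from 20 h on was 4.92 log2 units for miR-59-3p (edgeR, adjusted p = 4.22e-09) and 5.29 for miR-59-5p (adjusted p = 6.85e-08). As a description, the same fitted difference was 4.53 log2 units in Alg1E and 4.83 in N2 for miR-59-3p, and 5.64 in Alg1E and 5.05 in N2 for miR-59-5p.

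Set against the N2 library of the same hour, miR-59-3p was lower in Alg1E at 13 of 13 hours. The log2 difference ran from -0.16 at 20 h to -3.82 at 26 h, with a median of -1.41. At 26 h miR-59-3p was at 225 CPM in Alg1E and 3192 CPM in N2, so that it was 14.2-fold lower in Alg1E. At 30 h it was at 4111 CPM in Alg1E and 10914 CPM in N2, and the ratio of Alg1E to N2 had come back to 0.377. The difference was thus deepest in the middle of the N2 rise and smaller at both ends of the series. Markers of tissues also differed between these genotypes over the 13 hours. Intestinal miR-60-3p averaged 18150 ± 5211 CPM in Alg1E and 29327 ± 4937 CPM in N2, and muscle miR-1-3p 109469 ± 22616 CPM in Alg1E and 86154 ± 17424 CPM in N2. The neuronal miR-124-3p averaged 150.3 ± 80.7 CPM in Alg1E and 187 ± 46.8 CPM in N2, and the neuronal lsy-6-3p 87.1 ± 22.8 CPM in Alg1E and 60.9 ± 14.2 CPM in N2. Their part in the difference of miR-59 was not tested.

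miR-59 was selected on these values. In the comparison of the Alg1E and N2 time courses, miR-59-3p was at rank 1 and miR-59-5p at rank 36 of 243 miRNAs by p. In that comparison 35.4% of miRNAs passed the threshold, so nothing is read from that call. Within the rise, the 25 to 27 h mean of Alg1E was 421 ± 182 CPM, that of Alg1A 2884 ± 1248 CPM and that of N2 4205 ± 1220 CPM (SD over 3 libraries each). The 3 Alg1E libraries of that window lay below all 6 libraries of the other genotypes, as did those of 23.5% of the 243 miRNAs.

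miR-59-5p was lower in Alg1E than in N2 at 7 of 13 hours and higher at 6. It was lower at 6 of 6 hours from 22 to 27 h, with a median log2 difference of -1.27 and a low of -2.03 at 23 h. The Alg1E values at 22 and 23 h rest on 2 reads each, below the level of 3 reads, so that low is uncertain. miR-59-5p was higher in Alg1E at 29 and 30 h, by 1.64 log2 units at 30 h. There it stood at 112 CPM in Alg1E and 35.3 CPM in N2, 3.17-fold higher in Alg1E. Over all hours the level difference of Alg1E from N2 was -1.51 log2 units (SE 0.292) for miR-59-3p and -0.19 (SE 0.303) for miR-59-5p. The sign for miR-59-5p depended on scaling, at -0.29 with RLE factors, 0.09 with total counts and 0.26 with factors from the major arms, while miR-59-3p stayed between -1.63 and -1.05. These scalings moved the median of all miRNAs between Alg1E and N2 to 0.0055 log2 units with TMM, -0.11 with RLE, 0.28 with total counts and 0.44 with major arms. In the Alg1E against N2 level comparison 74.9% of miRNAs passed the threshold.

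**Figure D2:**
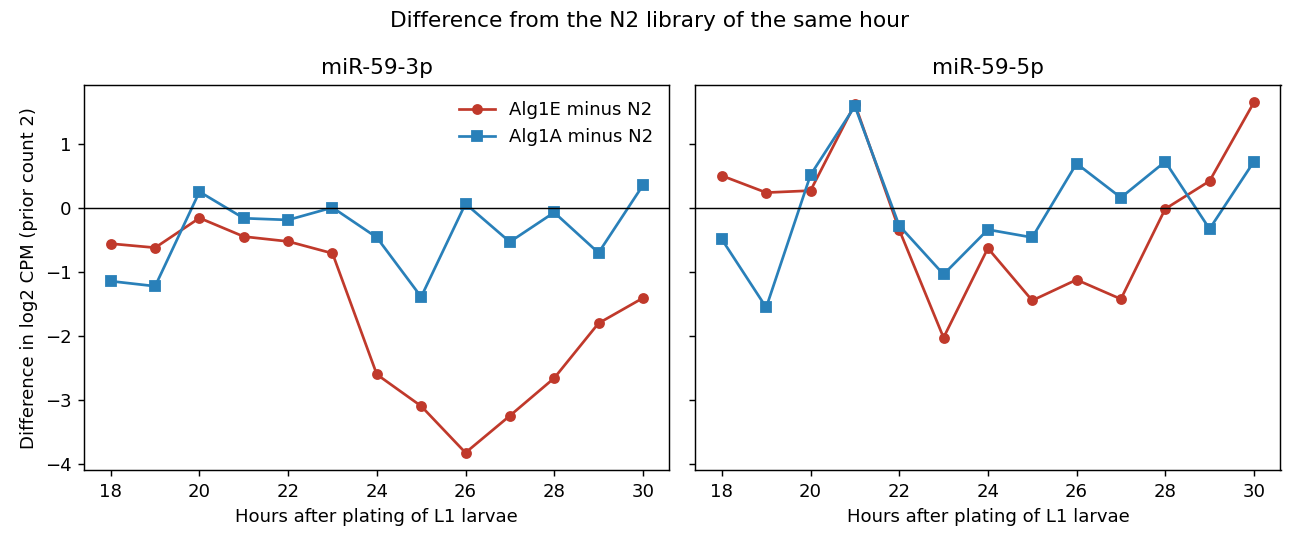
Difference in log2 CPM (prior count 2) from the N2 library of the same hour, for Alg1E and Alg1A, with miR-59-3p on the left and miR-59-5p on the right. The Alg1E difference of miR-59-3p reaches -3.82 at 26 h, and that of miR-59-5p ends above 0, at 1.64 at 30 h. The Alg1A differences lie on both sides of 0.

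The Alg1A series was next set against N2. miR-59-3p was lower in Alg1A than in N2 at 9 of 13 hours, with log2 differences from -1.39 at 25 h to 0.35 at 30 h and a median of -0.19. Across hours its level in Alg1A was 0.38 log2 units below N2 (log2 value -0.38, SE 0.277), which did not pass the threshold (edgeR quasi-likelihood test over all 39 libraries, adjusted p = 0.382). Fitted with the Alg1A and N2 libraries alone, the difference was -0.39 and passed it (edgeR, adjusted p = 0.0477). Without the Alg1A libraries of 18 and 19 h it was -0.23 (adjusted p = 0.574). miR-59-5p differed by 0.052 log2 units (SE 0.286, edgeR adjusted p = 0.926), and its sign turned, to -0.032, with hour as a spline. For miR-59-5p, values of this size are within the error, which does not show that the levels were equal. Whether miR-59-3p passed the threshold depended on the libraries in the fit. The fit over 39 libraries has no genotype by hour term. The uneven differences of Alg1E from N2, on which miR-59 was chosen, therefore counted in its spread. The part of these differences in the p-value was not tested. In the fit over 39 libraries 10.7% of miRNAs passed, 8.64% as higher in Alg1A and 2.06% as lower.

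The shape of the course over the hours was not found to differ between Alg1A and N2 for either strand. The adjusted p was 0.602 for miR-59-3p and 0.837 for miR-59-5p (edgeR quasi-likelihood test of the genotype by time terms), and the unadjusted p was 0.209 and 0.658. In this test 2.47% of miRNAs passed the threshold, 6 of 243, against 41 at an unadjusted p under 0.05. The comparison of Alg1E with N2 used the same N2 libraries, so the differences of both mutants share those values. As a description, since the Alg1E values took part in the choice, miR-59-3p was lower in Alg1E than in Alg1A at 11 of 13 hours, with a median log2 difference of -1.10 and a lowest value of -3.88 at 26 h. It was higher in Alg1E at 18 and 19 h, the hours of the Alg1A libraries that stood apart, by 0.60 at 19 h.

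The time of the rise was put as a midpoint, the first hour at which a smooth curve through the 13 libraries passed halfway, on the log2 scale, between its lowest and highest fitted level. For miR-59-3p the midpoint was 28.14 h in Alg1E, 24.99 h in Alg1A and 24.81 h in N2. The Alg1E midpoint was therefore 3.33 h later than that of N2 (jackknife SE 0.606, from leaving out each library), and lay between 3 and 3.53 h later whichever library was left out. The Alg1A midpoint was 0.18 h later than that of N2 (jackknife SE 0.639), which is within its error. The other measures gave larger values. The time of crossing the N2 midpoint level was 3.98 h later in Alg1E and 0.916 h later in Alg1A, and the best shift onto the N2 curve was 4 h in Alg1E and 1.1 h in Alg1A. Without the Alg1A libraries of 18 and 19 h, the Alg1A midpoint was 0.88 h later than that of N2.

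For miR-59-5p the midpoint was 26.66 h in Alg1E, 24.12 h in Alg1A and 24.06 h in N2. It was 2.6 h later in Alg1E than in N2 (jackknife SE 0.773) and 0.06 h later in Alg1A (jackknife SE 0.725). The best shift gave 1.4 h in Alg1E and -0.1 h in Alg1A. In each genotype the midpoint of the 5p strand came before that of the 3p strand, but no error was estimated for this order. The low end of the 5p curves rests on few reads. With a prior count of 0.5 the lag of miR-59-5p was 2.38 h in Alg1E and -0.32 h in Alg1A. Its fitted curve in N2 was highest at 28.08 h. For miR-59-3p the fitted curve was highest at 30 h, the end of the series, in all 3 genotypes, so the rise may not have been complete. A higher level after 30 h would place a midpoint later. As this holds for the mutants and for N2, the lags are uncertain in either direction.

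A second view set each mutant library against the N2 library taken some hours earlier. For miR-59-3p the root mean square log2 difference between Alg1E and N2 was 2.07 at the same hour, 1.77 at 1 h, 1.31 at 2 h, 0.886 at 3 h, 0.578 at 4 h and 0.851 at 5 h. Alg1E thus lay closest to N2 of 4 h earlier, over 9 pairs of libraries. For Alg1A the value was 0.679 at the same hour, 0.430 at 1 h and 0.838 at 2 h, so that N2 of 1 h earlier was closest. For miR-59-5p Alg1E was closest at 1 h (0.861) and Alg1A at the same hour (0.812). A single shift in time did not bring both strands of Alg1E onto N2: at 4 h earlier miR-59-5p was apart by 2.01. These distances hold differences in level as well as in time. At 4 h earlier miR-59-5p was on average 1.56 log2 units higher in Alg1E, and lower in 1 of 9 pairs. The parts of level and time in this were not tested.

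**Figure D3:**
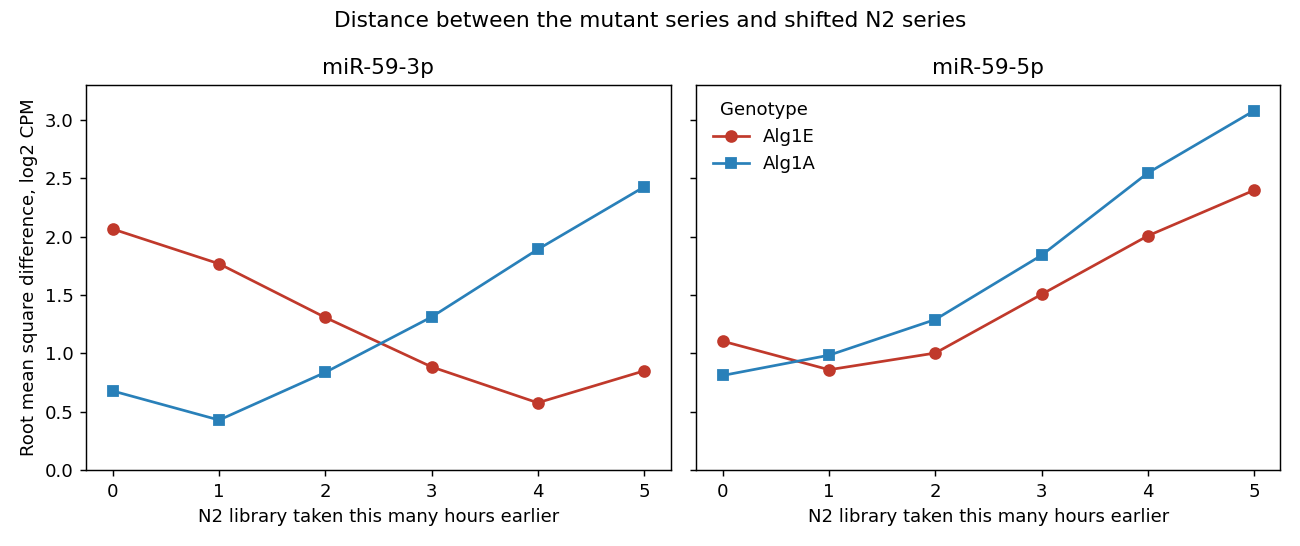
Root mean square difference in log2 CPM between each mutant series and the N2 series, against how many hours earlier the N2 library was taken, for miR-59-3p (left) and miR-59-5p (right). For miR-59-3p the lowest point is at 4 h for Alg1E (0.578) and at 1 h for Alg1A (0.430). For miR-59-5p it is at 1 h for Alg1E and at the same hour for Alg1A.

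The balance of the strands is a ratio within a library and does not depend on scaling. The 5p strand made up 1.11% of the reads of both arms in Alg1E at 18 h and between 0.374% and 0.630% at 19 to 23 h. It was then 2.66% at 24 h, 2.21% at 25 h, 3.05% at 26 h, 2.08% at 27 h, 3.32% at 28 h, 2.32% at 29 h and 2.64% at 30 h. All 7 Alg1E libraries from 24 h on were thus above all 6 earlier ones. How many other hairpins split in this way within Alg1E was not counted, so the split is not read as a trait of miR-59. The 24 h value rests on 8 of 301 reads, with an exact Clopper-Pearson 95% interval of 1.15% to 5.17%, which overlaps with the intervals of the earlier libraries other than that of 20 h. The 30 h value rests on 196 of 7417 reads, with an interval of 2.29% to 3.03%, where N2 at 30 h had 0.322% (57 of 17705 reads, interval 0.244% to 0.417%).

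In Alg1A the 5p share ranged from 0 to 1.40% with a median of 0.652%, and in N2 from 0 to 1.23% with a median of 0.505%. In both, the libraries before 24 h overlapped with those from 24 h on. Over 24 to 30 h the share in Alg1E averaged 2.61% ± 0.453, that in Alg1A 0.854% ± 0.307 and that in N2 0.567% ± 0.146 (SD over 7 libraries each). At those hours all Alg1E libraries were above all Alg1A and N2 libraries, and the same held for the rarer arm of 54.3% of the 94 hairpins with enough reads in both arms. Over the whole series the Alg1E mean was 1.67% ± 1.11, the Alg1A mean 0.643% ± 0.352 and the N2 mean 0.514% ± 0.293 (SD over 13 libraries each). In the libraries with no 5p read, 3 reads would be a share of 1.56% in Alg1A at 19 h and 0.201% in N2 at 21 h, and the exact 95% intervals reach 1.903% and 0.246%. Intervals and limits of this kind cover counting error only.

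**Figure D4:**
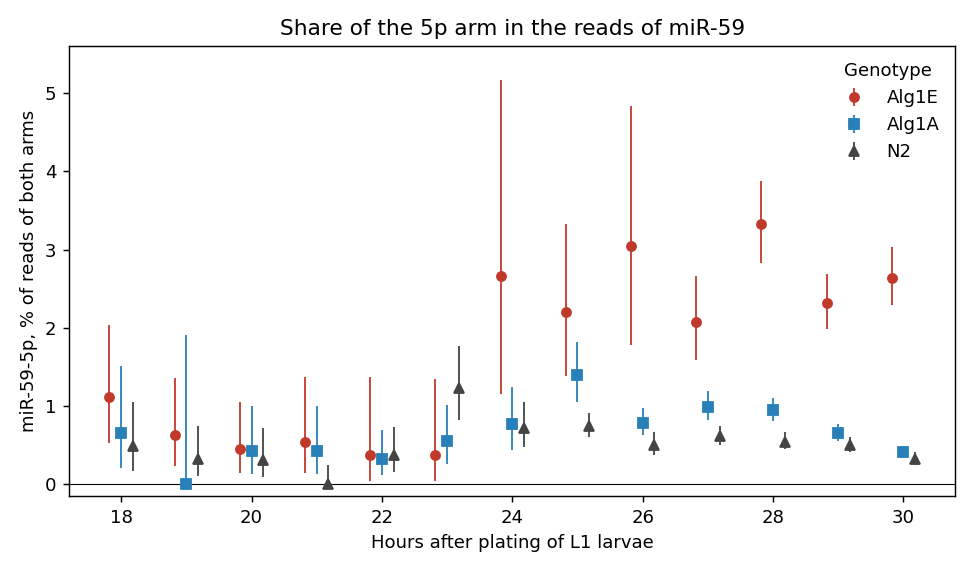
Share of miR-59-5p in the reads of both arms, in percent, against hours after plating, 1 point per library, with exact Clopper-Pearson 95% intervals (counting error only). Points of the 3 genotypes are set side by side within an hour. From 24 h on the Alg1E libraries lie between 2.08% and 3.32%, above all Alg1A and N2 libraries of those hours.

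Over all hours, the ratio of 5p to 3p reads was higher in Alg1A than in N2 by 0.53 log2 units (SE 0.308, 1.45-fold), higher at 10 of 13 hours, and did not pass the threshold (limma, adjusted p = 0.217). Of the 94 hairpins with enough reads in both arms, 21.3% passed it, and the median difference of the rarer against the more abundant arm was 0.28 log2 units. The Alg1E libraries, which took part in the choice, entered the spread of this fit. With only the Alg1A and N2 libraries, the miR-59 difference was again 0.53 log2 units and did not pass (limma, adjusted p = 0.144). For miR-59 the ratio was higher in Alg1E than in N2 by 1.66 log2 units, 3.17-fold, at 12 of 13 hours. That is a description, since both arms took part in the choice of miR-59. The median over the 94 hairpins was 2.05 log2 units between Alg1E and N2, and 88.3% of them passed the threshold, so the change of miR-59 was below that of the median hairpin. Against Alg1A the ratio of miR-59 was 1.13 log2 units higher in Alg1E, with a median of 1.77 over all hairpins.

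Other miRNAs rose in the same hours. Among 207 miRNAs with a mean of at least 10 CPM, the 5 most alike to miR-59-3p in log2 CPM over the 39 libraries were miR-357-3p (r = 0.96), miR-246-3p (r = 0.95), miR-5592-3p (r = 0.95), miR-5592-5p (r = 0.94) and miR-85-3p (r = 0.90), and the median r was 0.02. These 5 were the only ones above 0.9. Its own partner, miR-59-5p, had r = 0.88. Within genotypes the r of miR-59-5p was 0.88 in Alg1E, 0.97 in Alg1A and 0.95 in N2 (13 libraries each). The libraries share their hours and genotypes, so these r are descriptions of likeness.

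All 5 were less abundant on average than miR-59-3p. miR-357-3p averaged 10.8 CPM in Alg1E, 28.1 in Alg1A and 39 in N2. miR-246-3p averaged 42.1 CPM in Alg1E, 99 in Alg1A and 121 in N2. miR-85-3p averaged 441 CPM in Alg1E, 1077 in Alg1A and 1479 in N2. miR-59-3p itself averaged 952 CPM in Alg1E, 3132 in Alg1A and 3679 in N2, so each of these was lowest on average in Alg1E.

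A list of 8 miRNAs for comparison was chosen with their rise in these data known, lin-4-5p apart, so its counts are no independent evidence. In Alg1A 7 of the 8 rose with time (edgeR, adjusted p = 1.18e-05 or below), where 23.9% of all miRNAs were higher. lin-4-5p fell, by 1.30 log2 units (edgeR, adjusted p = 0.0284). Without the Alg1A libraries of 18 and 19 h its value was -0.45, past no threshold (edgeR, adjusted p = 0.0523), while the other 7 still rose. let-7-5p, the miRNA that promotes the larva-to-adult switch, rose by 5.05 log2 units in Alg1A between the fitted values of 18 and 30 h. miR-85-3p rose by 10.01 log2 units, the most of the list, and miR-59-3p by 6.13. Against N2, miR-240-3p (log2 difference -0.64, edgeR adjusted p = 0.0122) and miR-786-3p (-0.42, adjusted p = 0.0272) of the 8 were lower in level in Alg1A, where 2.06% of all miRNAs were. None of the 8 passed the test of the time course, where 2.47% of all miRNAs did. With so few passing, this does not show that their courses in Alg1A and N2 were the same.

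Midpoints were compared for 15 miRNAs that averaged at least 10 CPM and rose with time in N2 (18.1% of the 243 rose, by edgeR). The average was over the 39 libraries, and each had a fitted rise of at least 1 log2 unit in each genotype. The cutoff on level left out miR-358-3p, which averaged 3.05 CPM in Alg1E, 7.73 in Alg1A and 10.4 in N2. Its midpoint in Alg1E was 3.27 h after N2 (jackknife SE 0.400), close to that of miR-59-3p, and its best shift was 3.3 h. In Alg1E, miR-59-3p, at 3.33 h after N2, was second of the 15 by midpoint, after let-7-3p at 3.83 h and ahead of let-7-5p at 2.95 h. By best shift miR-59-3p was at rank 2, at 4 h, but miRNAs at both ends of the list changed place. miR-59-3p was chosen for its difference between these same Alg1E and N2 courses, so its high place by either measure is no independent evidence. let-7-3p was at -3 h and miR-77-3p, at -2.21 h by midpoint, was at 6 h, which are the ends of the range of shifts searched, so neither has a settled lag in Alg1E. The median over the other 13 was 1.67 h in Alg1E and 0.76 h in Alg1A, and the whole range by midpoint was -2.21 to 3.83 h in Alg1E and -0.95 to 1.71 h in Alg1A. In Alg1A, miR-59-3p was at rank 11 of 15 by midpoint, with 0.18 h. Its place there was not stable. Without the Alg1A libraries of 18 and 19 h it was at rank 4 with 0.88 h, over a median of 0.64 h, and by best shift its 1.1 h equalled the median. miR-357-3p had its midpoint 2.73 h after N2 in Alg1E and 0.8 h after it in Alg1A, and miR-246-3p 1.67 h and 1.02 h after it.

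Pairs of strands from one hairpin could be followed for several of these miRNAs. In Alg1E the 5p strands of miR-85, miR-240 and miR-786 had midpoints 0.75, 1.10 and 0.71 h before those of N2, while their 3p strands had them 1.47, 1.89 and 1.34 h after. By best shift miR-240-5p (-1 h) and miR-786-5p (-0.7 h) were again before N2, but miR-85-5p was 0.9 h after it. miR-59-5p also came earlier against N2 than its partner did, at 2.6 against 3.33 h (jackknife SE 0.773 and 0.606), but remained after N2. The gap between these 2 lags is not large against those errors, and no error was estimated for the order in any pair. The strands of miR-5592 had the same order in Alg1E, with miR-5592-5p 2.37 h and miR-5592-3p 2.93 h after N2. By best shift they were 2.2 and 2.5 h after it. For let-7 the order of the strands turned with the measure, with the rarer let-7-3p at 3.83 h by midpoint and -3 h by shift, and let-7-5p at 2.95 h by midpoint and 2.7 h by shift.

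**Figure D5:**
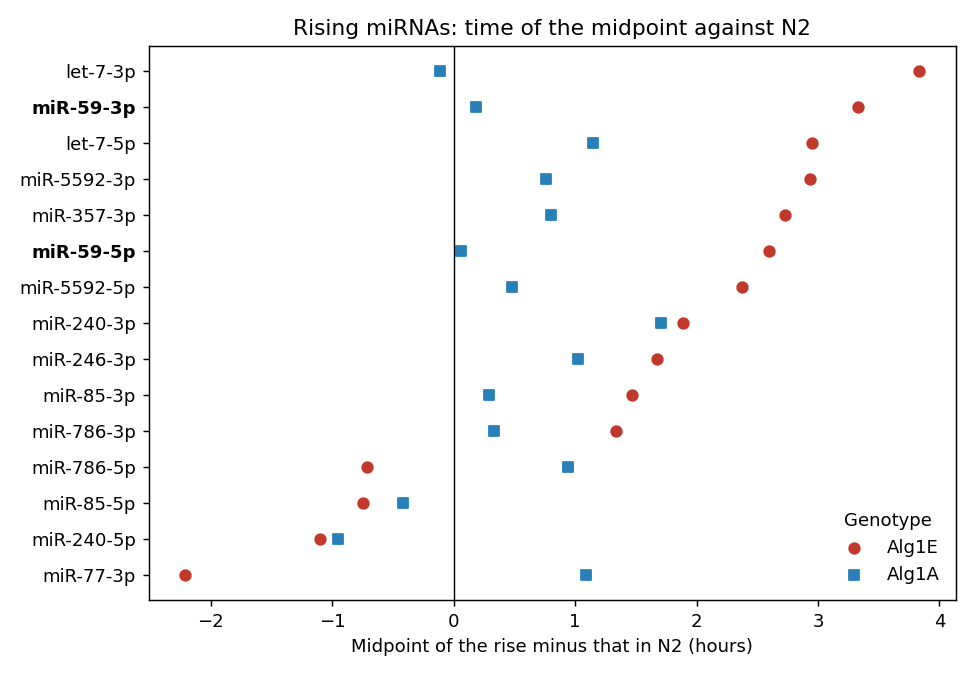
Midpoint of the rise in Alg1E and in Alg1A minus that in N2, in hours. The 15 miRNAs averaged at least 10 CPM, rose in all 3 genotypes and are ordered by the Alg1E value. Points right of 0 are later than N2. The 3p strand of miR-59 is at 3.33 h in Alg1E and 0.18 h in Alg1A, and the 5p strand at 2.6 h and 0.06 h.

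Of the nearest hairpins on the chromosome, mir-53 gave both strands. Its abundant strand, miR-53-5p, averaged 7971 ± 886 CPM in the Alg1E libraries, 8022 ± 2880 CPM in those of Alg1A and 8574 ± 1238 CPM in those of N2 (SD over 13 libraries each). Within the Alg1A series it fell by 1.30 log2 units between the fitted values of 18 and 30 h (edgeR adjusted p = 0.0135), and its 2 highest values there were 10414 and 16812 CPM at 18 and 19 h, in the libraries that stood apart. Without those libraries its value was -0.39 (edgeR, adjusted p = 0.265). The rarer miR-53-3p averaged 63.6 CPM in Alg1E, 8.76 in Alg1A and 8.08 in N2, and its value over time in Alg1A was 1.11 log2 units (edgeR, adjusted p = 0.32). On the higher side, miR-8207 did not pass the filter on low counts.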

How the data were processed

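Per the labels' protocols, the QIAseq miRNA Library Kit turned total RNA of whole larvae into small RNA libraries. The submitters' processing notes name the build ce11 and, as tools, HTSeq, SAMtools 1.9, Bowtie 1.2.2 and cutadapt 2.3. What is not given in the sources used here is their settings, strand handling, annotation and any collapsing by unique molecular identifier. Without collapsing, PCR copies count as reads. The authors deposited raw whole-number counts for each mature miRNA. Its 5 HTSeq summary entries, left out of library sizes and tests, include reads without a feature (in Alg1E 49.5% ± 11.4, in Alg1A 35.3% ± 9.64, in N2 37.2% ± 9.48, SD over 13 libraries each).

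From these counts, edgeR 4.0.16 (R 4.3.3) kept 243 miRNAs with filterByExpr and scaled libraries by TMM, a scaling that takes most miRNAs as unchanged. Levels were compared with its quasi-likelihood test over all 39 libraries (terms for genotype and for each hour), time within a genotype with a natural spline of 3 degrees of freedom, and time courses with the genotype by spline terms. limma 3.58.1 compared the arm ratios, with prior count 0.5, of the 94 hairpins whose arms both averaged 10 reads or more. Tests were two-sided, with Benjamini-Hochberg adjustment over all miRNAs or hairpins tested and a threshold of 0.05. Midpoints used a spline through log2 CPM (prior count 2).

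The members and lists were chosen with earlier results of these data known. Named miRNAs are both arms of miR-59, the 5 most correlated with miR-59-3p, a list of 8 rising or timing miRNAs and the nearest hairpins. MiRNAs that rose in all genotypes were added with the midpoints, and were chosen after their values were seen. A rule on shared seed sequence was not applied, since miRNA sequences were not used here. Alternatives were other scalings (RLE, total counts, TMM from the major arms), no filter, DESeq2 1.42.0, other splines and hour terms, only Alg1A and N2 libraries, other priors, other measures of the lag and leaving out libraries. The scripts were tested on simulated counts. There the median lag by midpoint came out longer than the lag that was set, while crossing and shift came out close to it.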

Additional observations from a re-analysis of the deposited data

How the results depend on the processing

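Depth limits miR-59-5p before 24 h, where a library held at most 29 of its reads. The rise of both strands in Alg1A passed the threshold in all 8 alternative fits and with any 1 library left out. For miR-59-3p its range was 4.92 to 6.46 log2 units (5.61 to 6.31 with 1 library left out), and for miR-59-5p 5.29 to 7.60 (5.19 to 5.82).

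The level of miR-59-3p in Alg1A against N2 ran from -0.40 to -0.23, and from -0.52 to -0.26 with 1 library left out. It passed the threshold in 1 alternative fit, with only the Alg1A and N2 libraries (-0.39, edgeR adjusted p = 0.0477). That of miR-59-5p was -0.032 with hour as a spline and ran from -0.090 to 0.18 with 1 library left out, below 0 without Alg1A at 26, 27 or 28 h or N2 at 21, 28 or 30 h. The count of miRNAs that differed in level was 63 without the Alg1A libraries of 18 and 19 h and 51 with only the Alg1A and N2 libraries, against 26.

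The count that differed in time course, 6, became 11 with total counts, 14 with DESeq2, 0 with no filter, 0 without the Alg1A libraries of 18 and 19 h and 0 with a spline of 2 degrees of freedom, and ran from 0 to 15 with 1 library left out. It was 0 without Alg1A at 18, 19 or 25 h or N2 at 18, 28, 29 or 30 h, and 15 without Alg1A at 20 h. Neither strand of miR-59 passed in any of them. The arm ratio passed for 32 hairpins without the Alg1A libraries of 18 and 19 h and for 32 with only the Alg1A and N2 libraries, against 20. For miR-59 that ratio ran from 0.29 to 0.73 log2 units with 1 library left out. The cause of these shifts was not tested.

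The lag of miR-59-3p was 3.98 h (crossing) and 4 h (shift) in Alg1E. In Alg1A it was 0.92 h (crossing), 1.1 h (shift) and 0.88 h without the Alg1A libraries of 18 and 19 h, the last chosen after seeing the data. That of miR-59-5p in Alg1E was 1.4 h by shift. No paired analysis was possible because the labels give no replicate numbers, and hour is already a term of the level fit. The other alternatives added after seeing the data left out the same Alg1A libraries for the other named miRNAs and for the order of the lags.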
